A study of Homo sapiens with 2 samples.

Results

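The pregnancy-specific glycoproteins (PSGs) are secreted members of the carcinoembryonic antigen family, encoded by a cluster of closely related genes on chromosome 19. The members were taken by symbol from the count table, which holds 18944 genes. All 10 listed PSG genes were present (PSG1 to PSG9 and PSG11), and 8 of them reached 1 CPM (counts scaled to a common library size) in one library or both. The family was chosen by its counts in the same parental and resistant libraries that are described here, so its own differences are a description and carry no test.

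In pregnancy PSGs are made by the syncytiotrophoblast of the placenta and are among the most abundant fetal proteins in maternal blood. They are built from immunoglobulin-like domains, lack the membrane anchor of many CEACAM relatives, and are known for acting on immune cells, platelets and latent TGF-beta. Outside the placenta their genes are little expressed in most healthy tissues. Kruppel-like factors, SP1, GABP and retinoid receptors have been studied as regulators of PSG promoters.

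RNA was sequenced from H1993, an established human lung cancer line with amplification of MET, the gene of a receptor tyrosine kinase. The parental library came from the line itself, with DMSO as its labelled treatment. The resistant library came from a derivative of the same line, labelled PHA665752 after the MET kinase inhibitor used to select it. Selection began at 1 nM drug and reached 1 µM, the maintenance dose, and the cells spent 1 week without drug before they were used. The labels do not say whether the derivative is 1 clone or a pool, or whether drug was added again for the collected cells. Each group had 1 library, so no difference below has a replicate check, no p-value is given, and the intervals cover counting error in these libraries only.

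The libraries held 16723181 parental and 17086748 resistant counts. MET, the drug target, had 4859 CPM in parental and 3054 CPM in resistant cells. Of 13 lung epithelial tumour markers, the keratin genes KRT7, KRT8 and KRT18 were abundant in both libraries, KRT8 most of all with 44881 and 57605 counts. EPCAM was 2.38-fold lower and MUC1 2.86-fold higher in the resistant library. NAPSA, SFTPA1 and SFTA2, markers of alveolar lineage, had 0 counts in both, while NKX2-1 had 70 and 101 counts. Fibroblast markers summed to 43.3 and 213.6 CPM over 12 genes, with DCN and THY1 at 0 in both, FBN1 (9.83-fold) and S100A4 (3.41-fold) higher, and COL1A1 at 348 and 242 counts. Endothelial markers summed to 0.356 and 29.2 CPM over 5 genes, all but 1 count of the latter from CDH5, with KDR and TEK at 0 in both. Leukocyte markers summed to 87.6 and 34.2 CPM over 6 genes, mostly CD68, with CD3E at 0 in both, PTPRC and CD68 lower and CD14 higher. Whether other cells had a part in the PSG counts was not tested.

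Promoters are shown because the members differed together and the 3 upstream sequences found are close copies. Entries for PSG3, PSG4 and PSG5 were found in the RefSeq table for GRCh38.p14, 3 of the 10 members. Each sequence below is the 250 bases before the annotated start, on the minus strand, 5′ to 3′. They lie at chr19:42740482-42740731 for PSG3, chr19:43186537-43186786 for PSG5 and chr19:43205639-43205888 for PSG4. Capitals mark a C-rich box that a search on both strands found.
PSG3: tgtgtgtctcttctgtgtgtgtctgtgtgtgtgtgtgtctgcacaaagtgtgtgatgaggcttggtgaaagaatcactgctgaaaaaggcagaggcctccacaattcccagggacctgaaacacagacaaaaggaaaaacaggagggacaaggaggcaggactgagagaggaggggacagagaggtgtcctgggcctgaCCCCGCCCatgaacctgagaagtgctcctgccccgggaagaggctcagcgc
PSG5: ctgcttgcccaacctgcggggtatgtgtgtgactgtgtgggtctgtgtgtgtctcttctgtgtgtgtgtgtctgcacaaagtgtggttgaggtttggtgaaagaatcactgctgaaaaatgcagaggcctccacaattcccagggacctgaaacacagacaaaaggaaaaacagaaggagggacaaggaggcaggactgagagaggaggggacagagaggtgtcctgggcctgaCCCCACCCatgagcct
PSG4: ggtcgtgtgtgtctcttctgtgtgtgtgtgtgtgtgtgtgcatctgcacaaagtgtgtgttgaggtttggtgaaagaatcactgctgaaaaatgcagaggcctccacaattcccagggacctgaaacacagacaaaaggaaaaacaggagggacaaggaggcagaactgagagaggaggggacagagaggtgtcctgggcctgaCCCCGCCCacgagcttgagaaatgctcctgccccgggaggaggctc
Aligned pairs of these windows were 94.1% (PSG4 and PSG5), 95.1% (PSG3 and PSG4) and 96.3% (PSG3 and PSG5) identical. Gaps were left out, so these values cover 219, 245 and 214 aligned bases, in the same order. The box sits in the same alignment column in all 3. PSG3 and PSG4 carry CCCCGCCC there, and PSG5 carries CCCCACCC, a G5A change counted from the 5′ end of the box. The box begins 51 bases before the annotated start in PSG3, 46 in PSG4 and 16 in PSG5. CCCCGCCC occurs on either strand in 21.8% and CCCCACCC in 10.4% of the 35116 promoter windows of this length in the table. The GC box GGGCGG, which overlaps the reverse strand of CCCCGCCC, was found in PSG3 and PSG4 and in 42.6% of all windows. The TATA motif TATAAA was not found in these windows and occurs in 10.7% of all windows. Nor was the ETS-type motif CCGGAAG, which 8.52% of all windows hold. The AP-1-type motif TGANTCA (6.57% of all windows) was also not found. The same held for the TEAD-type motif CATTCC, present in 11.9% of all windows. The windows hold 3 (PSG3), 4 (PSG4) and 1 (PSG5) CG pairs, below the median of 11. A match is only a match of letters and says nothing of binding.

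The coding sequences show how far reads can tell members apart. In GENCODE 29, the reference coding sequences of the 10 members were 88.4% to 94.8% identical over 45 pairs, with a median of 91.9%. The second coding exon of PSG4, PSG5 and PSG8, the members with the most resistant counts, has 366 coding bases, of which 41 differ among the 3. The 90 bases of this exon with the fewest differences (5, in capitals) lie at chr19:43204130-43204219, chr19:43185026-43185115 and chr19:42764160-42764249 (GRCh38, minus strand, in the order PSG4, PSG5, PSG8).
PSG4: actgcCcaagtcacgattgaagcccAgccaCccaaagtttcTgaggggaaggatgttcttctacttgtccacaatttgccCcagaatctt
PSG5: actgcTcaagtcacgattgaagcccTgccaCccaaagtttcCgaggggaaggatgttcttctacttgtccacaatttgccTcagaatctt
PSG8: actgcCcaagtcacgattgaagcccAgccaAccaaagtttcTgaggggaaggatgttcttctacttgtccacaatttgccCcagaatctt
The 90 bases with the most differences (15, in capitals) lie at chr19:43203889-43203978, chr19:43184785-43184874 and chr19:42763919-42764008 in the same order.
PSG4: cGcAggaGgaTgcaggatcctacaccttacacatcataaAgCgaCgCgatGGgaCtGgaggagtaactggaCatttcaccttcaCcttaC
PSG5: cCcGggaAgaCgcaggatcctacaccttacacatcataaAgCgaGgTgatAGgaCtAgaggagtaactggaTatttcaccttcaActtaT
PSG8: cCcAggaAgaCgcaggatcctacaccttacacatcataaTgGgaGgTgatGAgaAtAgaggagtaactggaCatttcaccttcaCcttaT
Of all 50-base stretches of each member's reference transcript, 59.8% (PSG8) to 81.2% (PSG7) occurred in no transcript of another gene. For 100-base stretches the range was 83.3% (PSG1) to 97.9% (PSG9), with 95.8% for PSG4, 91.3% for PSG5 and 86.7% for PSG8. The read length and the treatment of reads that match several genes are not given in the sources used here. The split of counts among members is therefore uncertain, and the family sum is given first.

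The PSG genes together had 238 parental and 6570 resistant counts. This is 14.1 and 387 CPM, a 27.4-fold higher level in the resistant library (exact 95% counting interval 24.1 to 31.3). As a share of all counts, PSG reads made up 0.00142% (exact interval 0.00125 to 0.00162%) of the parental library and 0.0385% (0.0375 to 0.0394%) of the resistant one. Counted as 1 gene, the family would rank 8467 among parental genes and 403 among resistant ones. A call required a log2 ratio (0.5 added to each count) of 1 or more in size, a 2-fold difference, with an interval that did not include 0. By this rule 8 of the 8 PSG genes past the CPM minimum were higher and 0 lower. Over the whole table, 12.1% of 12245 tested genes were called higher and 8.29% lower. Of the 8 members, 6 had less than 1 CPM in parental cells and passed the minimum only through the resistant library. Among the 712 genes of the table in that position, 86.9% were called higher, against 7.47% of the 11533 genes at 1 CPM or more in parental cells, so the call itself says little for these 6, and nothing is read from it.

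**Figure D1:**
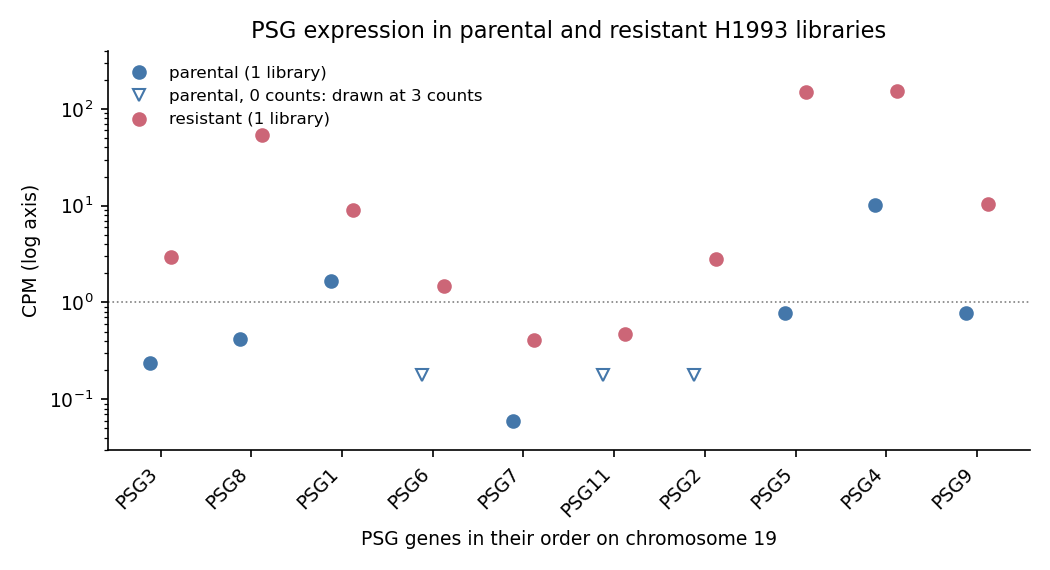
CPM of each PSG gene (log axis) in the parental (blue) and the resistant (red) library, 1 library each, in gene order on chromosome 19; open triangles mark 0 counts, drawn at the level of 3 counts, and the dotted line marks 1 CPM. Every red point lies above its blue one, with PSG5 at 151, PSG4 at 155 and PSG8 at 53.3 CPM in the resistant library.

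PSG4 was the main PSG transcript of the parental cells, with 172 of the 238 counts. It reached 2629 counts in the resistant library, a 15.2-fold higher level, from 10.2 to 155 CPM, with a log2 ratio of 3.92 (3.70 to 4.15). PSG1, the best studied member and a ligand of integrins and latent TGF-beta, was the only other PSG gene above 1 CPM in the parental library. It had 28 and 154 counts, a 5.45-fold higher level (3.63 to 8.48). These are the 2 members whose testing did not depend on the resistant library.

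PSG5 and PSG8 were scarce in the parental cells and abundant in the resistant ones. PSG5 went from 13 to 2568 counts, or 0.772 to 151 CPM, a 196-fold higher level (114 to 368). PSG8 went from 7 to 905 counts, or 0.416 to 53.3 CPM, a 128-fold higher level (62.0 to 319.8). Of all tested genes, 23 had an interval that began above that of PSG5, 41 above that of PSG8 and 204 above that of PSG4. The family was chosen by these same counts, so these places are a description and carry no test. PSG5 and PSG8 also passed the minimum only through the resistant library. The intervals of PSG5 and PSG8 overlapped each other and lay wholly above those of PSG4, PSG1, PSG9 and PSG3.

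PSG9, studied as a marker in colorectal cancer, and PSG3 had a few parental counts each. PSG9 had 13 and 176 counts, a 13.4-fold higher level (7.65 to 25.7). PSG3 had 4 and 50 counts, a 12.4-fold higher level (4.55 to 47.3). PSG9 thus equalled PSG5 in the parental library, at 13 counts each, while in the resistant library PSG5 had 2568 counts against 176.

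The remaining members had 0 or 1 parental counts. PSG2 had 0 and 48 counts, close to PSG3 in the resistant library, and PSG6 had 0 and 25. A count of 0 allows up to 3 counts, or 0.178 CPM in the parental library. Against this floor PSG2 was 15.9-fold and PSG6 8.26-fold higher. Their exact intervals, which also cover error in the resistant count, began lower, at 12.4-fold and 6.24-fold. PSG11 had 0 and 8 counts and PSG7 had 1 and 7, both under 1 CPM in each library. PSG11 was 2.64-fold higher against the floor, with an interval from 1.69-fold. The ratio for PSG7 was 6.94 (0.892 to 313), which includes no difference. With members at 0 counts set to these values against the floor, the median log2 ratio of all 10 members was 3.59, against 0.00 over all tested genes. All 4 share 100-base stretches with abundant members: PSG2 with PSG5 and PSG8, PSG6 with PSG4 and PSG5, PSG11 with PSG8, and PSG7 with PSG4. Whether their few counts came from their own transcripts was not tested. In GENCODE 29 a gene on the opposite strand overlaps PSG11, PSG2 and PSG5, and another overlaps the span of PSG8. Without a stated strand setting, reads from sequence that such a gene shares with a PSG gene cannot be told apart. The reference transcripts of the members shared 100-base stretches only with other PSG genes, PSG10P among them.

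**Figure D2:**
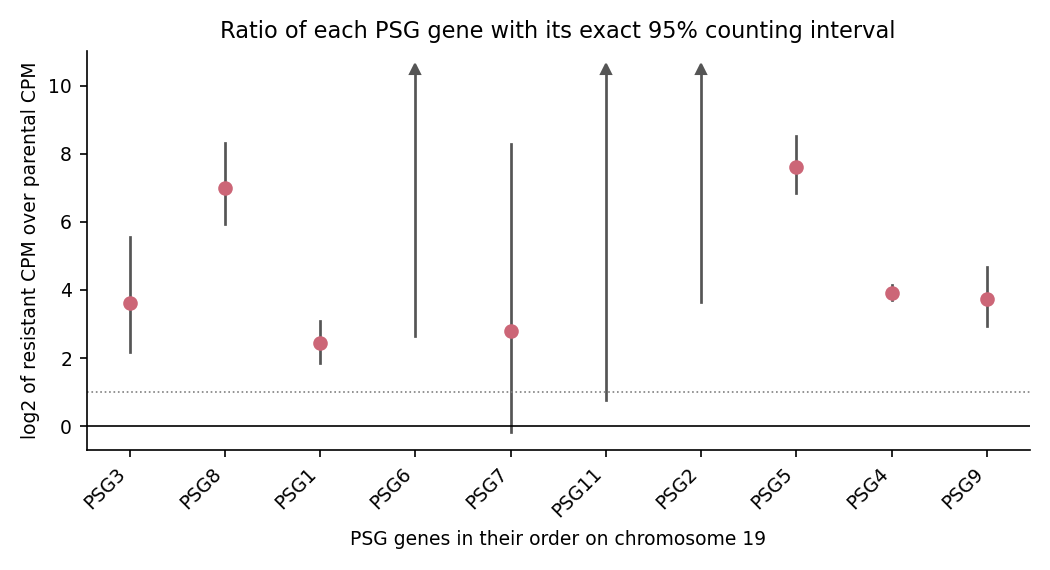
Log2 of resistant over parental CPM for each PSG gene (points) with its exact 95% counting interval (lines); arrows mark the 3 genes with 0 parental counts, whose intervals have no upper end. The intervals of PSG5 and PSG8 begin above those of PSG4, PSG1 and PSG9 end, and that of PSG7 crosses 0.

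The make-up of the family differed between the libraries. PSG4 held 72.3% of parental PSG counts (exact interval 66.1 to 77.9%) and 40.0% of resistant ones (38.8 to 41.2%). PSG5 went from 5.46% (2.94 to 9.16%) to 39.1% (37.9 to 40.3%) and PSG8 from 2.94% (1.19 to 5.97%) to 13.8% (12.9 to 14.6%). PSG1 went the other way, from 11.8% (7.96 to 16.6%) to 2.34% (1.99 to 2.74%). PSG5 and PSG4 are next to each other on the chromosome, while PSG8 lies near the far end of the cluster, with 5 members between it and PSG5. Together these 3 genes made up 80.7% (75.1 to 85.5%) and 92.9% (92.2 to 93.5%) of PSG counts. The other 7 members summed to 46 and 468 counts, a 10.1-fold higher level (7.44 to 14.0). Without PSG4, the family had 66 and 3941 counts, a 59.2-fold higher level (46.4 to 76.7).

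**Figure D3:**
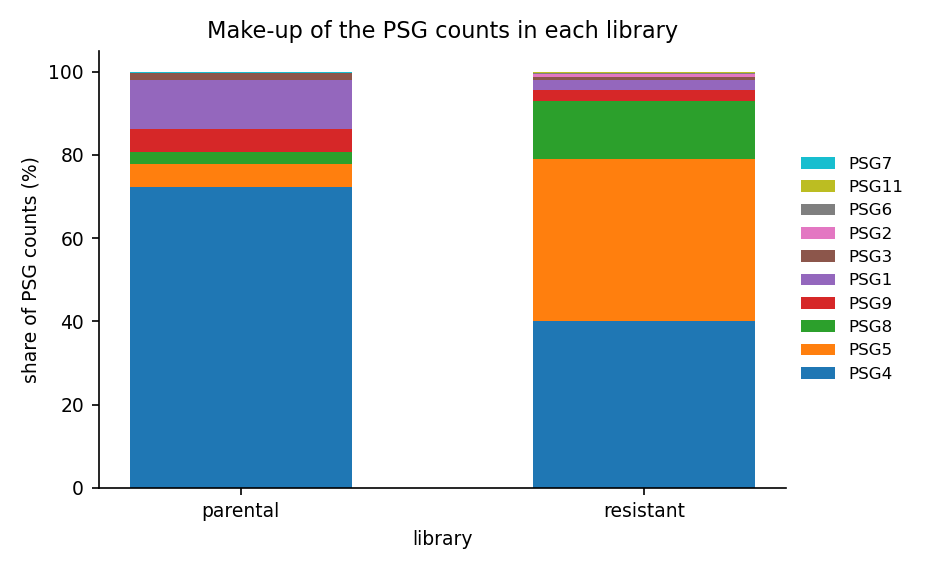
Share of all PSG counts (%) held by each PSG gene in the parental and the resistant library, as stacked bars from 0 to 100. PSG4 fills 72.3% of the parental bar, and PSG4 and PSG5 fill 40.0% and 39.1% of the resistant bar.

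Counts favour long transcripts, so levels of different members were also compared per length. The authors' deposited log2 values behave as log2(x + 1) of a value scaled by length. Over 8335 genes with more than 200 counts in both libraries, counts divided by x gave nearly the same number in each (median ratio 0.993). That number followed the longest coding transcript of the gene (Spearman's rho 0.865 across 8194 genes, a description). On this per-length scale PSG5 led the resistant library with a level x of 104, above PSG4 at 77.0 and PSG8 at 33.7. In the parental library PSG4 led with 5.02, followed by PSG1 (0.794), PSG9 (0.593) and PSG5 (0.519). PSG9 and PSG5 had 13 parental counts each. The counts divided by x for PSG9 were 21.9 in parental and 25.8 in resistant, so the order of PSG9 and PSG5 is uncertain. The resistant order continued with PSG9 (6.81), PSG1 (4.39), PSG2 (1.94), PSG3 (1.67), PSG6 (1.09), PSG11 (0.384) and PSG7 (0.272). PSG5 ranked 804 and PSG4 ranked 1119 among all genes of the resistant library on this scale. Summed over the family, x was 7.32 and 231, a 31.6-fold difference. Without replicates, error beyond counting in the order of members close to each other in these lists could not be measured.

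The other genes around the cluster were compared by their order in the RefSeq annotation. No other row of the count table lies between PSG3 and PSG9. Of the 15 nearest rows on each side, 25 in all passed the CPM minimum, with 7 higher, 0 lower, 20 log2 ratios above 0 and a median of 0.58. Over all 862 tested genes of chromosome 19 the median was 0.10, with 118 higher and 45 lower. The median was 0.78 over the 13 tested genes beyond PSG9 and 0.32 over the 12 before PSG3. The nearest measured gene beyond PSG9 was CD177, a neutrophil surface glycoprotein gene, with 4 and 110 counts and a log2 ratio of 4.61. CD177 had 0.238 CPM in parental cells and passed the minimum only through the resistant library. Of all genes of the table in that position, 86.9% were called higher. ETHE1, a mitochondrial sulfur dioxygenase gene, was at 1.79 and LIPE, the hormone-sensitive lipase gene, at 1.61. ZNF428 (1.16), CNFN (1.13), PHLDB3 (1.07) and LYPD3 (1.02) passed more narrowly, and LYPD3 was no longer past 1 when total counts replaced the TMM scaling. In the authors' deposited log2 values PHLDB3 (0.88) and LYPD3 (0.98) both lost the call, leaving 5 neighbours higher. On the PSG3 side the nearest row was CEACAM8, with 3 and 1 counts, and next to it CEACAM1, an adhesion receptor gene, at -0.54. TEX101, beside CD177, was at -0.57.

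**Figure D4:**
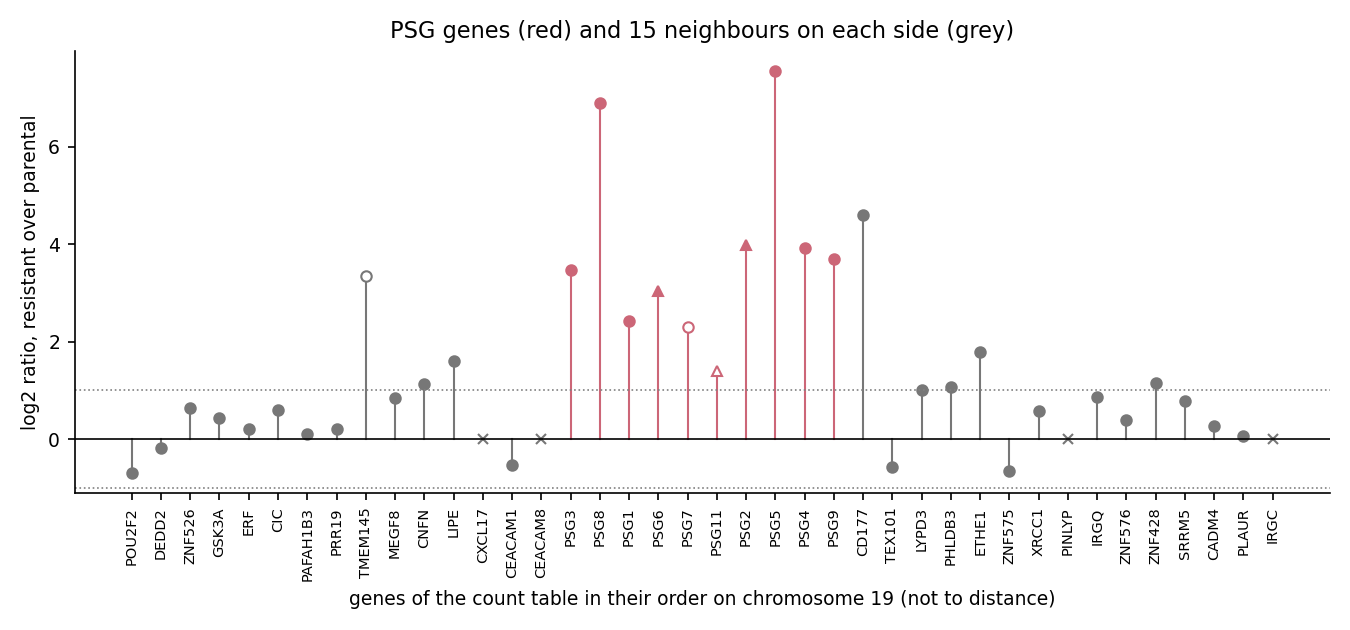
Log2 ratio of resistant over parental counts for the PSG genes (red) and 15 neighbouring rows of the count table on each side (grey). Rows are by gene order and not to distance. Triangles mark genes with 0 parental counts, drawn against the floor of 3 counts. Open symbols mark genes under 1 CPM in both libraries, crosses mark genes with 3 counts or fewer in both, and dotted lines mark 2-fold. CD177 at 4.61, with 4 parental counts, is the highest neighbour, and CEACAM1 and TEX101 lie below 0.

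Among the CEACAM genes, relatives of the PSG genes on the same chromosome, CEACAM5 and CEACAM6 were lower in the resistant library. CEACAM6 had 2624 and 203 counts, a log2 ratio of -3.70 (-3.92 to -3.50), and CEACAM5, the carcinoembryonic antigen gene, had 531 and 49, a log2 ratio of -3.44 (-3.90 to -3.03). Of 12 CEACAM rows, 3 passed the CPM minimum, 2 of them lower and 0 higher, against 8.29% and 12.1% of all tested genes. The other of the 3, CEACAM1, fell short of the 2-fold call, at -0.54 (-0.93 to -0.16). Another 6 rows had 0 counts in both libraries. PSG and CEACAM rows together summed to 3549 and 6926 counts.

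PSG genes are best known as products of trophoblast, and a list of other trophoblast hormones, enzymes and surface proteins was read beside them. It matched 44 rows, of which 12 passed the CPM minimum, with 9 higher and 0 lower, against 12.1% and 8.29% of all tested genes. Of the 9, 5 (CGA, HSD3B1, ADAM12, PLAC1 and ALPPL2) passed the minimum only through the resistant library. Among all genes of the table in that position, 86.9% were called higher. Of the 6 list genes at 1 CPM or more in parental cells, 4 (TFPI2, PAPPA, ALPP and PEG10) were higher, against 7.47% of such genes. The gene lists used here were chosen with earlier results of these data known, so such counts are a description and carry no test. The median log2 ratio was 3.06 over the 12 genes and 1.57 over the 27 with any count. The value 1.57 is the ratio of a gene with 0 and 1 counts, such as CGB7, and is set by the 0.5 added. TFPI2, a protease inhibitor gene of the placenta, had 659 and 12997 counts, a 19.6-fold higher level (18.1 to 21.2). PAPPA, which encodes the pregnancy-associated protease that cleaves IGF-binding proteins, had 53 and 945 counts and was 17.7-fold higher (13.4 to 23.8). ADAM12, a metalloprotease gene, was 30.9-fold higher (18.6 to 55.7), with 15 and 468 counts. CGA, the alpha subunit gene of chorionic gonadotropin, had 0 and 55 counts. It was 18.2-fold higher against the floor of 3 counts, with an interval from 14.3-fold. HSD3B1, a steroid synthesis gene, had 5 and 86 counts, and PLAC1 had 1 and 31. The placental phosphatase genes ALPP and ALPPL2, which are near-identical so that their split is uncertain, were 4.44-fold and 3.26-fold higher. PEG10, a retrotransposon-derived imprinted gene and the most abundant of the list, was 2.57-fold higher (2.51 to 2.63). HSD17B1 (0.17), PGF (0.62) and SDC1 (-0.48) were not called.

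Much of the trophoblast list was not seen. There were 17 members with 0 counts in both libraries, among them the placental lactogen genes CSH1 and CSH2, the aromatase gene CYP19A1 and the galectin genes LGALS13, LGALS14 and LGALS16. The beta subunit genes of chorionic gonadotropin, which are also near-identical, gave 3 (CGB2) and 1 (CGB7) counts in the resistant library and 0 in the parental one, and CGB5 and CGB8 had 0 in both. INSL4 and KISS1 had 0 and 5 counts each. GCM1, the transcription factor gene that drives syncytiotrophoblast formation, had 0 and 1 counts. The list summed to 872 and 2555 CPM, mostly PEG10 and TFPI2.

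The tested trophoblast transcription factor genes were lower or similar in the resistant library. Of 16 rows, 12 passed the CPM minimum, 0 were higher and 4 lower, with a median log2 ratio of -0.70. Over the table, 12.1% of tested genes were higher and 8.29% lower. EOMES (-1.74), OVOL1 (-1.70), ASCL2 (-1.58) and MSX2 (-1.01) were the lower ones. GATA2 (0.13), TFAP2A (0.25), TFAP2C (0.27) and CDX2 (0.10) had log2 ratios nearer to 0. PPARG, the most abundant, was at -0.68, with GATA3 at -0.72 and TEAD4 at -0.84. MSX2 was not called with DESeq2 size factors, and MSX2 and EOMES were at -0.89 and -0.92 in the authors' deposited log2 values.

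Of the factors studied at PSG promoters, 11 of 13 rows passed the CPM minimum, with 0 higher, 2 lower and a median of -0.26. The shares over the table were 12.1% higher and 8.29% lower. KLF4 and KLF6, the Kruppel-like factor genes, had 896 and 1552, and 571 and 812 counts, log2 ratios of 0.78 and 0.50 that fell short of 2-fold. SP1, the most abundant, was at -0.58 and SP3 at -0.12. GABPA was at 0.09, GABPB1 at 0.29 and GABPB2 at -1.01, a call lost with DESeq2 size factors. The retinoic acid receptor gene RARG was 2.80-fold lower (2.50 to 3.15), while RARA was at -0.26, RXRA at -0.34 and RXRB at -0.61. RARB had 0 and 2 counts and RXRG 0 in both.

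Genes for proteins that PSGs are reported to bind, with their relatives, went both ways. Of 21 rows, 20 passed the CPM minimum, with 5 higher, 5 lower and a median of -0.31, against 12.1% higher and 8.29% lower over the table. Of the 5 higher, 4 (GPC3, GPC6, ITGA2B and TGFB3) passed the minimum only through the resistant library. The glypican genes GPC3 (0 and 477 counts) and GPC6 (1 and 311 counts) stood highest, while GPC4 was 2.07-fold lower and GPC1 was at -0.40. Against the floor of 3 counts GPC3 was 158-fold higher, with an interval from 128-fold. The tetraspanin gene CD9 was 3.50-fold lower (3.14 to 3.89). The integrin gene ITGA2B, with 5 and 43 counts, was higher, and ITGA5 was at -1.03, while ITGB3, the partner of ITGA2B, had 0 counts in both libraries. ITGB1, the most abundant of the list, was at -0.17. Among syndecans, SDC3 was at -1.47, SDC4 at -0.64, SDC1 at -0.48 and SDC2 at -0.02. In the TGF-beta system, TGFB3 (2.08) and LTBP4 (1.58) were higher and LTBP3 (-1.17) was lower. TGFB1 (-0.23), TGFB2 (0.48), LTBP1 (-0.72) and LTBP2 (-0.72) were not called. The galectin gene LGALS1 was at 0.10. In the authors' deposited log2 values ITGA2B (0.71), TGFB3 (0.55), ITGA5 (-0.89) and GPC4 (-0.95) lost their calls, leaving 3 higher and 3 lower.

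**Figure D5:**
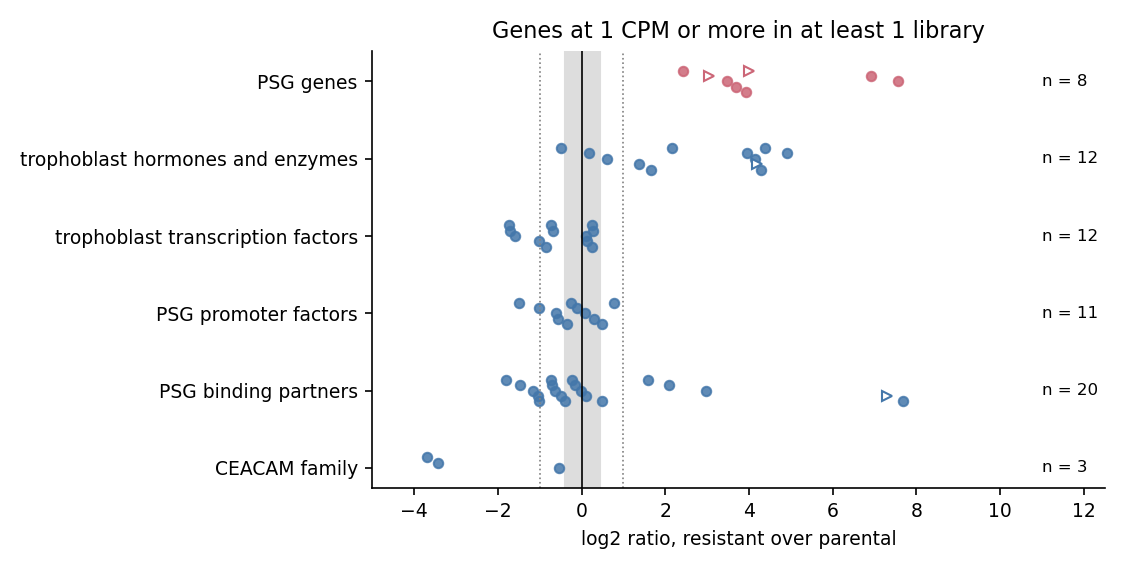
Log2 ratio of resistant over parental counts for each gene past the CPM minimum in the PSG family (red) and 5 lists (blue). The number of genes is at the right. Open triangles mark genes with 0 parental counts, drawn against the floor of 3 counts. The grey band marks the range between the quartiles of all tested genes (-0.39 to 0.43) and dotted lines mark 2-fold. All 8 PSG points and 9 of 12 trophoblast hormone and enzyme genes lie right of the 2-fold line. Of these, 6 and 5 passed the minimum only through the resistant library, and 86.9% of all genes in that position were called higher.

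The genes of the table whose 2 values lay nearest to those of the PSG family sum were sought by the distance in log2(CPM + 0.5) over the 2 libraries. The nearest was FSTL1, a secreted follistatin-like glycoprotein gene, with 230 and 6088 counts. SVEP1 (294 and 4024), NID2 (135 and 5177), a nidogen gene of basement membranes, and VCAN (130 and 4569), the versican gene, were also among the nearest. With only 2 libraries, likeness here means no more than a similar pair of levels.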

How the data were processed

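Total RNA of the 2 libraries was extracted with TRIzol and made into TruSeq libraries, per the labels' protocols. The authors deposited raw counts per gene symbol, per the file headers, for 18944 genes. Per the submitters' processing notes, FastQC and STAR were used, with GRCh38 and hg19 both named as builds. The counting program, annotation, strand setting and read length are not given in the sources used here. The authors also deposited normalized log2 values, per the file headers, by a method not stated, which were used as an alternative and for levels per length.

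Libraries were scaled by TMM (edgeR 4.0.16, R 4.3.3). Genes reaching 1 CPM in either library were tested. Ratios had exact conditional binomial 95% intervals and shares had exact Clopper-Pearson intervals (scipy 1.17.1). PCR reads are not independent molecules, so intervals and the floor of 3 counts cover counting error only. The calling script was tested on simulated data. Coding sequences and promoters were aligned with MAFFT 7.526. Reference coding sequences were the longest complete ones of GENCODE 29, and 50-base and 100-base stretches were searched in all its transcripts on both strands. Promoters and gene order came from RefSeq GRCh38.p14. Motifs were searched on both strands.

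The members and lists were chosen with earlier results of these data known. Genes named are all members, list genes and neighbours past the call rule, the most abundant gene of each list, the nearest neighbours, the 5 genes most like the family sum, and MET. One gene that this rule names is not reported here. Other genes of these lists named in the text were chosen after their values were seen.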

Additional observations from a re-analysis of the deposited data

How the results depend on the processing

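No paired analysis was possible because each group has 1 library, and leaving out a replicate was likewise not possible. Of 215 alternative values over 35 results, 184 kept their direction and side of the call or, for counts of genes, stayed within 1.5 times the main count. Another 31 lost the call or fell further, and 0 reversed. A reversal could be scored only for the log2 ratios of the family and its members. Counts of genes could not reverse, and a count that stayed at 0 was scored as kept. The family log2 ratio of 4.77 fell short of 2-fold only when CEACAM rows, which are lower, were added to the sum (0.95). With at least 5 CPM, 5 PSG genes were called higher instead of 8, because fewer were tested. Neighbours called higher numbered 7, or 3 with the whole interval beyond 2-fold and 1 at 4-fold. Over the table, 1480 genes were higher and 1015 lower. These became 774 and 359 at 4-fold and 926 and 591 with the deposited log2 values, and 655 were lower with the whole interval beyond 2-fold. With no CPM minimum, 9 PSG genes were called higher, PSG11 added. In the deposited log2 values PSG11 differed by 0.47 and PSG7 by 0.29, and the other 8 by 1.06 to 6.11. The deposited log2 values also gave a lower median for the trophoblast hormones and enzymes, 1.66 instead of 3.06. No CPM minimum gave 1.57 over 27 genes, the ratio of counts of 0 and 1 with 0.5 added to each. Depth limits PSG2, PSG6, PSG7 and PSG11 most, with 0 or 1 parental counts each.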
